A study of Mus musculus with 39 samples.

Results

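Chac2, Cpeb4 and Fbxw11 are genes on mouse chromosome 11 whose promoter fragments served as viewpoints beside the globin genes. They make up 3 of the 8 viewpoints captured together in 3 libraries, and the series holds 39 samples with 22 distinct viewpoint fragments. The members were taken by name from the viewpoints listed in the labels, and the rule uses no measured value. In NG Capture-C, chromatin is fixed, cut with the enzyme DpnII and religated (a 3C library), and the reads that join a captured fragment, the viewpoint, to any other fragment are counted. All 3 libraries came from wild type C57Bl6 mouse foetal liver (MFL) cells that had been expanded as erythroid progenitors, depleted of cells with the late erythroid marker Ter119, sorted by CD44 and size, given BrdU late in culture and kept for 30 h in differentiation medium. The untreated library was harvested before treatment, the DMSO library after 3 h with the solvent, and the DRB library after 3 h with DRB, which blocks elongation by RNA polymerase II. After DRB treatment the study used a low-input form of the method, as material was limited. There was 1 library of each kind. A difference between them therefore compares libraries and not conditions, and 95% intervals cover counting error only. The labelled cell type could not be checked by marker genes, since no expression was measured in these libraries.

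Promoters are brought near other parts of their chromosome by looping and by the general packing of chromatin, and the frequency of such contacts falls with genomic distance. Genes of this stretch sit on both sides of the alpha-globin locus, which is active in erythroid cells and forms a domain whose sequences contact each other often. Chac2 encodes a gamma-glutamylcyclotransferase that acts on glutathione. Cpeb4 encodes a cytoplasmic polyadenylation element-binding protein that regulates translation and takes part in terminal erythroid differentiation. Fbxw11 encodes an F-box protein, a substrate receptor of the SCF ubiquitin ligase.

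All positions are given in build mm9 (NCBIM37). The Chac2 viewpoint, chr11:30885726-30886628, is 903 bp long and holds the start of Chac2, a gene of 9.64 kb on the minus strand whose body lies at lower coordinates. The gene lies inside an intron of Asb3, which runs on the plus strand. The Cpeb4 viewpoint, chr11:31769089-31771457, is 2369 bp long. It holds the RefSeq start of Cpeb4, whereas the GENCODE vM1 gene, 63.4 kb long on the plus strand, begins 754 bp beyond the end of the fragment. The Fbxw11 viewpoint, chr11:32542406-32542848, is 443 bp long and holds the start of Fbxw11, a gene of 104 kb on the plus strand. Each fragment begins and ends with the DpnII site, and none holds a further site inside. The first and last 40 bases of each fragment are shown because every contact reported here is a ligation to 1 of these ends; they are written on the plus strand and the DpnII site is in capitals.
Chac2 viewpoint, left end: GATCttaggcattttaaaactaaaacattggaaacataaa
Chac2 viewpoint, right end: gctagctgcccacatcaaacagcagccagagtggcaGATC
Cpeb4 viewpoint, left end: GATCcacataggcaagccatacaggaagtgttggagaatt
Cpeb4 viewpoint, right end: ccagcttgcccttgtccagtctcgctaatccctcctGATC
Fbxw11 viewpoint, left end: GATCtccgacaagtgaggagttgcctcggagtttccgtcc
Fbxw11 viewpoint, right end: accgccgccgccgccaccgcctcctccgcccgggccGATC

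The promoters themselves, 250 bases before to 50 bases after the RefSeq start, differed in base composition. They were taken from RefSeq (GRCm38.p6), where all 5 symbols looked up were matched, and placed on mm9 by an exact and unique match. They are shown in the direction of transcription, with DpnII sites in capitals, because they define what the viewpoints captured.
Chac2, chr11:30886316-30886615, minus strand: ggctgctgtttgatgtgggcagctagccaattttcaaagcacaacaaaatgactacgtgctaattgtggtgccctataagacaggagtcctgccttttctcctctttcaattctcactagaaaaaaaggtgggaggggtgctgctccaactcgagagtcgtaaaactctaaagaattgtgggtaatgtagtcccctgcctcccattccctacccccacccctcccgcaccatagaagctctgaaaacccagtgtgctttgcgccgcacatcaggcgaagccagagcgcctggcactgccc
Cpeb4, chr11:31770690-31770989, plus strand: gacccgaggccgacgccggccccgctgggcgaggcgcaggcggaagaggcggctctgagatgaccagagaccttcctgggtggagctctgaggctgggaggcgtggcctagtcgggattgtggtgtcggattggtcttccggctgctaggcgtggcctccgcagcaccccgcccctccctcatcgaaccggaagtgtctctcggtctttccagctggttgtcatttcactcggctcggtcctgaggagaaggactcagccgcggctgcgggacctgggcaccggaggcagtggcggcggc
Fbxw11, chr11:32542305-32542604, plus strand: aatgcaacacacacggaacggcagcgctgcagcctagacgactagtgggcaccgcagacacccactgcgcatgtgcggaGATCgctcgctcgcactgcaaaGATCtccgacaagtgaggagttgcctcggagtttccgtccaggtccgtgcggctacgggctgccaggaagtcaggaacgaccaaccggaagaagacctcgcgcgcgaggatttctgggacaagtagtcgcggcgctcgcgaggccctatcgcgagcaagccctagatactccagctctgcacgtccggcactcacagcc
The Chac2 promoter held 8 CpG dinucleotides, near the median of 7 over 32544 RefSeq promoters. The Cpeb4 promoter held 27 and the Fbxw11 promoter 31, both above the upper quartile of 20. Both promoters rich in CpG held CCGGAAG on either strand, with 2 matches at Cpeb4 and 1 at Fbxw11, whereas the Chac2 promoter held 0; this motif was found in 8.91% of all promoters. CCAAT was found once each at Chac2 and Cpeb4 and in 37.4% of all promoters. GGGCGG was found once at Cpeb4 and in 35.9% of all promoters. Neither AGATAA nor TATAAA was in any of the 3 windows, and they were found in 11.2% and 13.6% of all promoters. The Chac2 and Cpeb4 promoters lay wholly within their viewpoints. Of the Fbxw11 promoter, 199 bases lay within the viewpoint, and GATC occurred 2 times in it, against 47.8% of promoters with this palindrome at least once.

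The values are reporter reads, scaled here for each viewpoint to 100000 reads on its own chromosome (cis) leaving out fragments closer than 1 kb to a viewpoint, and are called interactions. From Chac2 there were 15987 reads in the untreated, 12426 in the DMSO and 25858 in the DRB library. From Cpeb4 there were 16884, 13288 and 29553, and from Fbxw11 7964, 6588 and 14867, so the DRB library was the deepest from each promoter. Between 59.5% and 68.1% of reads were in cis from the 3 promoters, against 60.0% to 65.9% from the globin genes and Slc25A37 (mitoferrin) in the same libraries. The value of 3 reads, up to which a fragment at 0 may lie, was between 16.1 and 70.6 interactions. DpnII reads carry no molecular identifiers, and intervals cover counting error only. In the replicated libraries of the series, replicates of the same group were compared by a chi-square test from 1 viewpoint per group. They differed beyond counting error in 21 of 24 pairs (p under 0.05), with chi-square over degrees of freedom of 1.09 to 4.28. The spread between libraries can therefore exceed the counting intervals given here.

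The 3 promoters differed in how far their contacts spread. Within 100 kb of the viewpoint lay 30.5%, 33.8% and 30.4% of cis contacts of Chac2 in the untreated, DMSO and DRB libraries. For Cpeb4 these shares were 45.6%, 47.6% and 46.2%, and for Fbxw11 25.4%, 25.8% and 23.5%. The values of the promoters did not overlap between them. The 5 other viewpoints of the panel had means of 46.8% to 60.3%, so Cpeb4 lay next to the lowest of these, Hbb-b1, and Chac2 and Fbxw11 lay below all of them. Median contact distance was 139.9 kb, 119.5 kb and 135.1 kb for Cpeb4 in the 3 libraries. It was 760.5 kb, 499 kb and 836 kb for Chac2 and 3485 kb, 3120 kb and 3109 kb for Fbxw11. More than 50% of the cis contacts of Fbxw11 thus lay beyond 1 Mb, with 42.5% on average within it, against 53.8% for Chac2 and 67.4% for Cpeb4.

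Decay with distance was shallower from all 3 promoters than from the globin genes. The slope of log10 interactions per kb on log10 distance, fitted from 10 kb to 1 Mb, was -1.03 ± 0.023 for Chac2, -1.21 ± 0.0085 for Cpeb4 and -0.96 ± 0.055 for Fbxw11 (SD over 3 libraries). It was -1.57 for Hba-1, -1.50 for Hba-2, -1.52 for Hbb-b1, -1.62 for Hbb-b2 and -1.42 for Slc25A37. Over 10 distance classes from 1 kb to 5 Mb, the viewpoint most like Chac2 was Fbxw11 and the reverse, with a root mean square log2 difference of 0.50 (range 0.47 to 0.54 over the libraries). The most like Cpeb4 was Hba-2, at 0.72 (0.70 to 0.77), ahead of Hba-1 at 0.83. For comparison, the same promoter differed between libraries by 0.084 to 0.20 on this log2 measure.

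**Figure D1:**
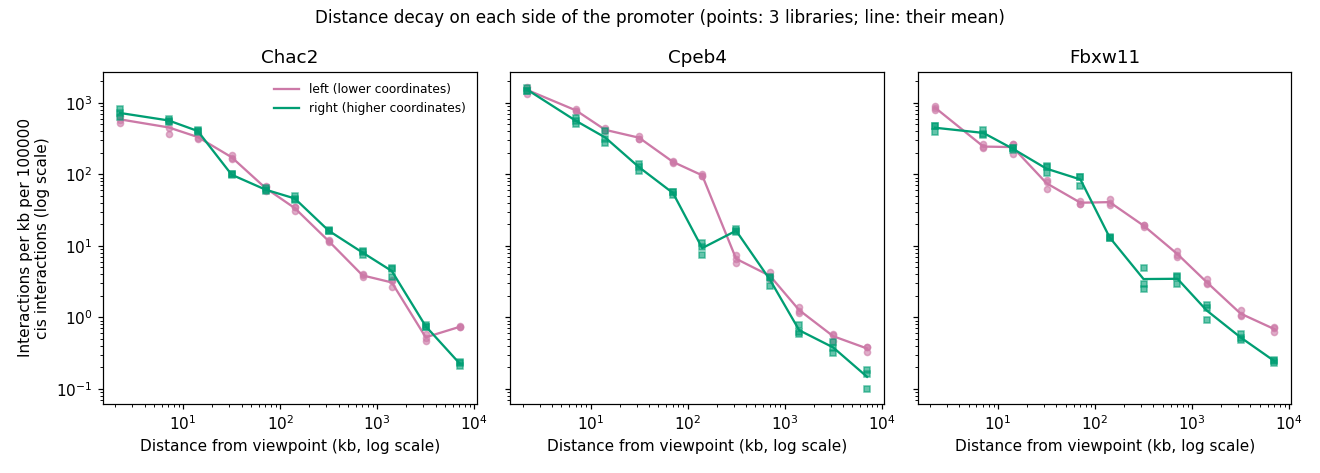
Interactions per kb (log scale, per 100000 cis interactions) against distance from the viewpoint in kb (log scale) for Chac2, Cpeb4 and Fbxw11, on the side of lower coordinates (left) and of higher coordinates (right). Points are the 3 libraries and lines their means; from Cpeb4 the left side lies 10.5-fold above the right at 100 to 200 kb and 2.49-fold below it at 200 to 500 kb, and from Fbxw11 the left side lies 5.83-fold above the right at 200 to 500 kb.

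Left here means lower coordinates. Of the contacts of Chac2 within 100 kb, 50.1%, 53.0% and 49.8% lay to the left in the untreated, DMSO and DRB libraries. At 20 to 50 kb the left side, which holds the Asb3 start, had a mean of 173 interactions per kb and the right side 98.9, a 1.75-fold difference with the interval of the log2 ratio above 0 in all 3 libraries. The balance turned with distance. At 500 kb to 1 Mb, towards Cpeb4, the right side had 8.06 interactions per kb and the left side 3.86, a 2.08-fold difference in the other direction. At 5 to 10 Mb it turned again, with 0.737 per kb to the left and 0.227 to the right, or 3.25-fold.

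Cpeb4 was asymmetric. Of its contacts within 100 kb, 66.3%, 61.4% and 63.4% lay to the left, away from its own gene body. At 100 to 200 kb the left side had 99.8, 96.1 and 94.7 interactions per kb in the untreated, DMSO and DRB libraries and the right side 7.53, 9.55 and 10.8. The contact plateau on the left held 109 interactions per kb at 100 to 125 kb, 80.8 at 125 to 150 kb and 117 at 175 to 200 kb, where the Bod1 start lies at 198 kb. Beyond Bod1, which encodes a protein of chromosome biorientation in mitosis, the mean fell to 36.4 at 200 to 225 kb, 9.62 at 225 to 250 kb and 1.21 at 325 to 350 kb. On the right the order was the reverse. The mean fell to 5.79 per kb at 175 to 200 kb, beyond the gene body. It rose to 15.3 at 250 to 275 kb and 26.8 at 325 to 350 kb, both short of the alpha-globin domain. At 400 to 425 kb, within the distance of the domain, it was 29.3. Over its own gene body Cpeb4 had 223, 268 and 242 interactions per kb.

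Fbxw11 changed side more than once. At 1 to 5 kb the left side had a mean of 860 interactions per kb and the right side 449. From 20 to 100 kb the right side was the higher. At 50 to 100 kb, within its gene body, the right side had 92.7, 92.3 and 69.6 interactions per kb and the left side 38.9, 39.1 and 42.3, with DRB the lowest on the right and the highest on the left. The right side fell from 117 per kb at 50 to 75 kb to 53.0 at 75 to 100 kb, 27.5 at 100 to 125 kb and 13.0 at 125 to 150 kb, a fall that spans the end of the gene at 104 kb. At 200 to 500 kb, 19.7, 18.2 and 19.7 interactions per kb lay to the left, the side of the alpha-globin locus, against 2.92, 2.51 and 4.87 to the right. The left side stayed 2.15-fold to 2.80-fold above the right in every class from 500 kb to 10 Mb. Over its own gene body Fbxw11 had 143, 139 and 122 interactions per kb.

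**Figure D2:**
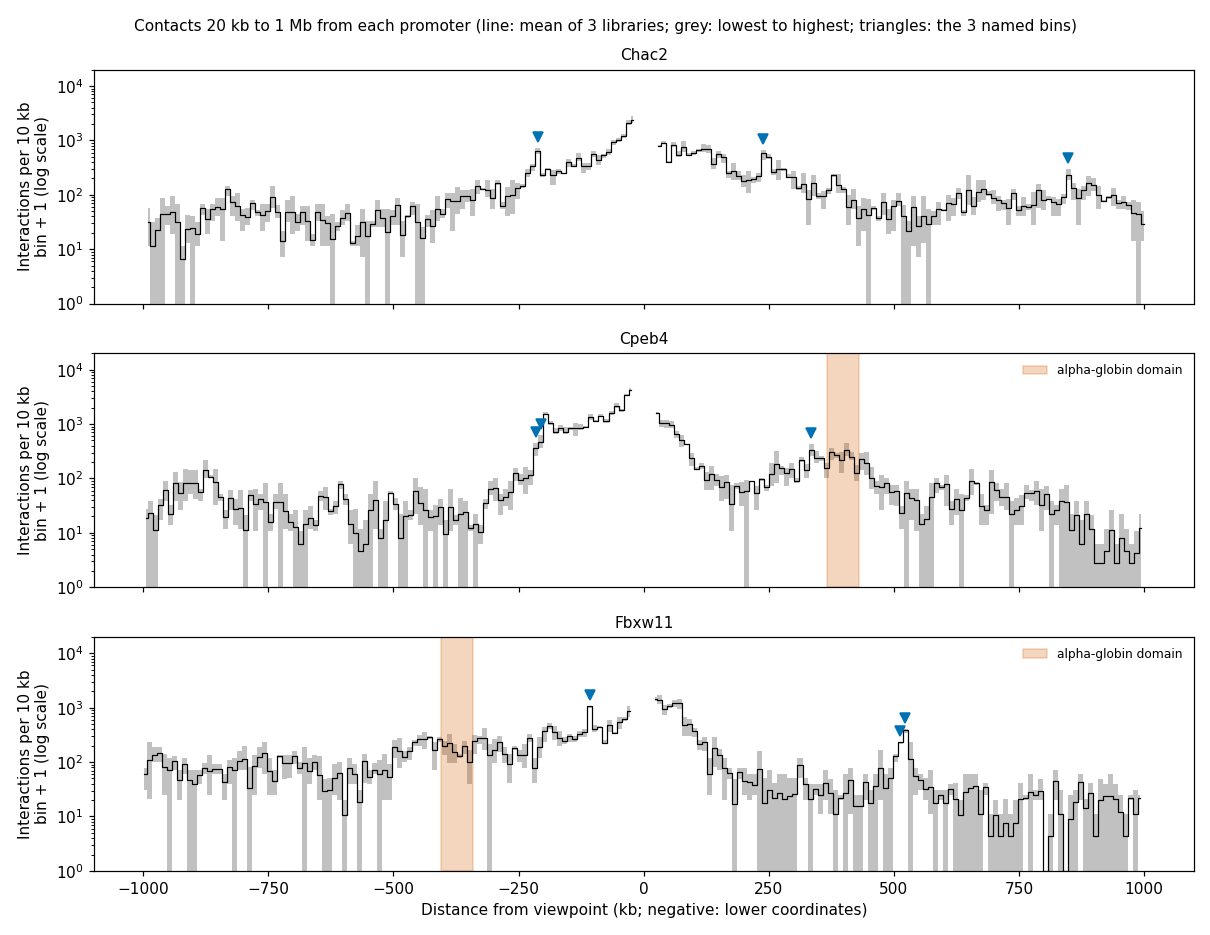
Interactions per 10 kb bin plus 1 (log scale) against distance from the viewpoint in kb for the 3 promoters, from 20 kb to 1 Mb; the line is the mean of 3 libraries, grey their lowest to highest value, the shaded band the alpha-globin domain and triangles the 3 named bins of each promoter. From Cpeb4 the contacts step down beyond the Bod1 bin on the left. On the right they rise again before the domain and stay high over it. From Fbxw11 the Npm1 bin stands above its surroundings on the right.

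Named 10 kb bins were those from 20 kb to 1 Mb with the largest excess over the mean of their distance class, taken over both sides together. The lower of the untreated and DMSO values was used, so the excess in these libraries is a description. The DRB library was not used to pick the bins. From Chac2 the bins were chr11:31120001-31130000, which overlaps no gene, chr11:30670001-30680000, which holds the start of Psme4, and chr11:31730001-31740000, which overlaps no gene and lies left of Cpeb4. The Psme4 bin had 69, 42 and 110 reads, or 722, 558 and 676 interactions, which is 5.09-fold, 4.06-fold and 4.81-fold the mean of its class. Psme4 encodes a proteasome activator, and its start lies 214 kb from the viewpoint. The bin at 239 kb on the right had 670, 638 and 442 interactions, an excess of 4.72-fold, 4.64-fold and 3.15-fold that was smallest with DRB. The bin at 849 kb had 28, 14 and 36 reads and an excess of 4.93-fold, 3.30-fold and 3.52-fold. The next bin in rank, which was not named, had an excess of 3.17-fold by the same measure.

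From Cpeb4 the bins were chr11:31550001-31560000, which overlaps no gene, chr11:31560001-31570000, which overlaps Bod1, and chr11:32100001-32110000, which overlaps Il9r, Snrnp25 and Rhbdf1 next to the alpha-globin locus. The Bod1 bin had 633, 369 and 429 interactions, an excess of 5.49-fold, 3.38-fold and 3.65-fold. It lies at the edge of the plateau described above, and its neighbour at 215 kb had 3.49-fold, 4.08-fold and 2.19-fold. The bin of Il9r (a cytokine receptor), Snrnp25 (a subunit of the minor spliceosome) and Rhbdf1 (an inactive rhomboid protease) had 321, 420 and 262 interactions, 2.79-fold, 3.85-fold and 2.24-fold the class mean. The next bin in rank was at 2.77-fold, close to this value.

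From Fbxw11 the leading bins were chr11:33060001-33070000, which holds the start of Npm1, and its neighbour chr11:33050001-33060000. Npm1 encodes nucleophosmin, an abundant protein of the nucleolus, and its start lies 521 kb to the right, on the side where contacts were otherwise few. The start bin had 21, 17 and 34 reads, or 409, 400.2 and 338 interactions, which is 7.69-fold, 7.73-fold and 5.47-fold the class mean and the largest excess of the 9 named bins in each library. The reads fell on 12, 12 and 16 fragments, and no fragment held more than 6, so the value does not come from 1 fragment. The neighbouring bin had 4.39-fold, 4.55-fold and 3.54-fold. The third bin, chr11:32430001-32440000, holds the starts of Efcab9 and Stk10, a serine/threonine kinase, and had 1090, 1083 and 1004 interactions, 4.26-fold, 3.74-fold and 3.79-fold the class mean. The next bin in rank was at 2.75-fold.

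The Psme4 and Stk10 promoters are shown, again from RefSeq and with DpnII sites in capitals, because the named bins of Chac2 and Fbxw11 hold them.
Psme4, chr11:30671525-30671824, plus strand: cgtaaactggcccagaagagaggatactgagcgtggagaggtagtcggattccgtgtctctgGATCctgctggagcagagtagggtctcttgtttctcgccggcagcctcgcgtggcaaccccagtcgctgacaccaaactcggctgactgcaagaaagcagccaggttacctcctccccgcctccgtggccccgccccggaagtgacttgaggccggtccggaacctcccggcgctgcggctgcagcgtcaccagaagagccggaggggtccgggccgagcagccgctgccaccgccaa
Stk10, chr11:32433016-32433315, plus strand: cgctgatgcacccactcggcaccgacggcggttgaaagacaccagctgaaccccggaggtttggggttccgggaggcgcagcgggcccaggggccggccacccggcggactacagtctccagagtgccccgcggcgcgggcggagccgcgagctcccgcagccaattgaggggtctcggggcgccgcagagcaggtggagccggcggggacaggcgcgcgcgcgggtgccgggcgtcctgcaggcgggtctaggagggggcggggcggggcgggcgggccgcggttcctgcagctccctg
They held 25 and 39 CpG dinucleotides. Psme4 held CCGGAAG once and GGGCGG once, and Stk10 held GGGCGG 5 times and CCAAT once, with overlapping matches counted.

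Gene starts within 1 Mb were looked at as a group, in 10 kb windows centred on each start and with starts near another viewpoint left out. From Chac2, 6 of 14 windows (42.9%) were above the mean of their distance class in all 3 libraries, against 21.1% of all 10 kb bins in that range. From Cpeb4 the count was 9 of 18 (50%), against 22.2% of bins, and from Fbxw11 9 of 19 (47.4%), against 19.6% of bins. The windows of neighbouring starts overlap, such as those of Erlec1 and Asb3, of Il9r and Snrnp25, of Rhbdf1 and Mpg or of Efcab9 and Stk10. The same reads can therefore count for more than 1 start. In addition, 1, 8 and 7 starts were left out, so these shares are descriptions. From Chac2 the largest excess was at Psme4, with 4.72-fold, 4.35-fold and 4.29-fold, and Bod1 followed with 1.41-fold, 3.54-fold and 2.25-fold on 8, 15 and 23 reads. From Cpeb4 the Bod1 start was at 2.94-fold, 2.94-fold and 2.47-fold, and the overlapping windows of Efcab9 and Stk10 were both at 3.99-fold, 2.38-fold and 2.93-fold on 14, 7 and 19 reads. From Fbxw11, Npm1 was at 8.78-fold, 8.64-fold and 5.95-fold and Ubtd2, which encodes a ubiquitin domain protein, at 1.83-fold, 2.11-fold and 1.61-fold. Il9r, Snrnp25 and Rhbdf1, which lie between Cpeb4 and Fbxw11, were above the class mean in all 3 libraries from both. The same held for Bod1, which lies to the left of both. The class mean is taken over both sides and over the whole class, so a start near the lower limit of a class can lie above it through distance. From Fbxw11 at 200 to 500 kb it was 11.2, 10.3 and 12.2 interactions per kb in the untreated, DMSO and DRB libraries. The left side alone had 19.7, 18.2 and 19.7 there, so a window above the class mean need not exceed the mean of its own side.

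Contact of each promoter with the other genes was also counted, in windows of the whole gene and 5 kb on each side. Fragments within 1 kb of a viewpoint were left out, so contact between the promoter fragments themselves was not measured. From Chac2 the Cpeb4 window, 884 kb away, had 848, 717 and 798 interactions, or 12.3, 10.4 and 11.6 per kb, against 3.28, 2.89 and 2.84 per kb at the same distance on the other side. From Fbxw11 the Cpeb4 window, 772 kb away, had 701, 730 and 736 interactions, or 10.2, 10.6 and 10.7 per kb, against 0.796, 0.641 and 2.30 on the other side, where only 3, 2 and 17 reads fell. Seen from Cpeb4 the same pair looked different. Its contacts with the Fbxw11 window were 2.16, 4.22 and 3.41 per kb, against 5.98, 5.58 and 4.23 at the same distance on the left. Each value is scaled to its own viewpoint and the windows differ in length, so values from opposite ends of a pair are set side by side only. From Cpeb4 the Chac2 window had 6.00, 10.6 and 7.36 per kb on 10, 14 and 23 reads, against 1.02, 1.94 and 1.91 per kb on 2, 3 and 7 reads on the other side. Chac2 and Fbxw11, 1656 kb apart, had 4.87, 3.21 and 3.52 per kb seen from Chac2, against 3.03, 2.91 and 3.12 on the other side. Seen from Fbxw11, the Chac2 window held only 7, 4 and 7 reads.

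The alpha-globin domain is an interval of 63.74 kb that holds the alpha-globin genes and the start of Nprl3. It lies 1251 to 1315 kb to the right of Chac2, 367 to 431 kb to the right of Cpeb4 and 342 to 406 kb to the left of Fbxw11. After the viewpoint fragments inside it were left out, 58.0 kb of it were used. From Chac2 it held 88, 39 and 161 reads in the untreated, DMSO and DRB libraries, or 0.921% (95% Wilson interval 0.748% to 1.13%), 0.518% (0.379% to 0.707%) and 0.989% (0.848% to 1.15%) of cis contacts. From Cpeb4 it held 159, 116 and 315 reads, or 1.597% (1.37% to 1.86%), 1.48% (1.23% to 1.77%) and 1.69% (1.51% to 1.88%). From Fbxw11 it held 54, 36 and 135 reads, or 1.05% (0.807% to 1.37%), 0.847% (0.613% to 1.17%) and 1.34% (1.13% to 1.59%). Cpeb4 was thus highest in every library although Fbxw11 lies nearer to the domain.

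Against their own surroundings the 3 promoters differed. From Cpeb4 the domain had 27.5, 25.4 and 29.1 interactions per kb, the left flank of the same length 20.3, 22.8 and 19.4, the right flank 11.03, 9.19 and 13.8, and the interval at the same distances on the other side 1.42, 1.40 and 3.03. The log2 ratio of domain over both flanks was 0.81, 0.67 and 0.81, and each interval lay above 0. Against the left flank alone the DMSO library did not differ beyond counting error, at 0.16 (-0.21 to 0.53). From Chac2 the domain had 15.9, 8.92 and 17.0 per kb and its log2 ratio over the flanks was 0.56, 0.23 and 0.81, with 0 inside the interval in the DMSO library (-0.33 to 0.79). Its left flank, which holds the starts of Il9r, Snrnp25, Rhbdf1 and Mpg, had 14.8, 9.17 and 12.2 per kb. The domain differed from it beyond counting error in the DRB library, with a log2 ratio of 0.48 (0.14 to 0.81), and not in the others, at 0.10 (-0.32 to 0.53) and -0.04 (-0.66 to 0.58). From Fbxw11 the domain had 18.1, 14.6 and 23.1 per kb and the flanks together 23.8, 21.2 and 21.9. The log2 ratio was -0.40 (-0.84 to 0.05), -0.54 (-1.08 to -0.00068) and 0.08 (-0.22 to 0.37), so no library had an excess over the flanks beyond counting error. In the DMSO library the domain lay below the flanks beyond it, narrowly, and against the left flank alone it was at -0.63 (-1.22 to -0.03). These ratios depend on the limits chosen. With flanks of 200 kb the mean over the libraries went from 0.53 to 1.25 from Chac2 and from 0.76 to 1.47 from Cpeb4, and with the domain taken between the outer CTCF sites that of Fbxw11 turned from -0.29 to 0.10.

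All 3 promoters had more contact with the domain than with the interval at the same distances on the other side. The log2 ratio over that interval was 1.47, 1.03 and 1.54 from Chac2, 4.28, 4.19 and 3.26 from Cpeb4 and 2.89, 2.30 and 3.21 from Fbxw11, and every interval lay above 0. Relative to the mean of its distance class on the same side, contact with the domain was 2.43-fold to 3.47-fold from Chac2, whose class of 1 to 2 Mb reaches well beyond the domain, 1.56-fold to 1.76-fold from Cpeb4, and 0.804-fold to 1.17-fold from Fbxw11. The right side of Cpeb4 and the left side of Fbxw11 were high as a whole at these distances, as given above.

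**Figure D3:**
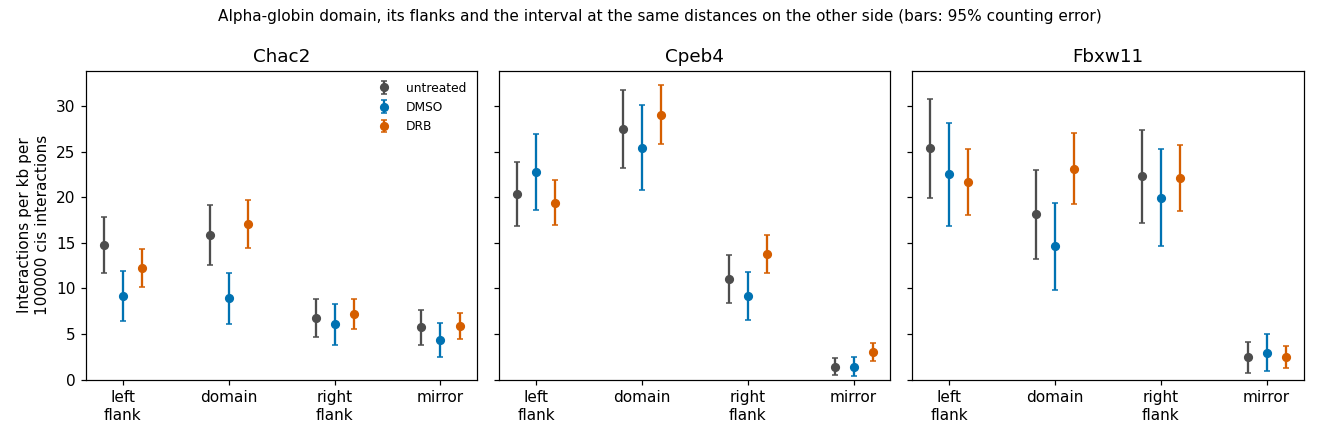
Interactions per kb (per 100000 cis interactions) of the alpha-globin domain, of the left and right flank of the same length and of the interval at the same distances on the other side of each promoter (mirror), for the untreated, DMSO and DRB libraries; bars are 95% counting error. From Cpeb4 the domain (25.4 to 29.1) lies above both flanks, from Fbxw11 it lies below both flanks in the untreated and DMSO libraries and above both with DRB (23.1 against 21.7 and 22.1), and from each promoter it lies above the mirror.

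Reads were spread over the parts of the domain and the sites beside it. The Nprl3 window reaches beyond the left end of the domain, and the window of the leftmost CTCF site spans that end. The rightmost CTCF site lies beyond the right end. Nprl3, a gene whose introns hold the alpha-globin enhancers, had a mean of 24.4 interactions per kb from Cpeb4 (range 21.2 to 26.6), 20.8 from Fbxw11 (16.2 to 23.4) and 14.5 from Chac2 (10.1 to 17.2). The window of the adult alpha-globin genes had 25.4 from Cpeb4 (23.5 to 27.7), 20.48 from Fbxw11 (16.6 to 28.2) and 9.75 from Chac2 (6.59 to 15.2). The enhancers R1 and R2 rested on 6 to 32 reads over all 3 libraries. R2 had means of 29.2 per kb from Cpeb4, 29.4 from Fbxw11 and 17.0 from Chac2, with ranges that overlap those of Nprl3. R1 had 21.4 from Cpeb4 (3.87 to 39.1) and 15.4 from Chac2 (12.1 to 19.1), which overlap Nprl3 too. From Fbxw11 R1 had 8.38 (5.91 to 12.1) on 6 reads, below the range of Nprl3. CTCF is an insulator protein that binds on both sides of the locus. At the leftmost CTCF site given by the study Fbxw11 had a mean of 41.3 per kb (26.5 to 62.7) on 16 reads, Cpeb4 18.1 (8.92 to 28.6) on 17 and Chac2 18.6 (5.46 to 32.5) on 12, so the ranges overlapped. At the rightmost site Fbxw11 had 25.4 (18.9 to 31.3), Cpeb4 13.2 (10.1 to 19.4) and Chac2 0.411 with 1 read in all. The CTCF site next to it on the left also lies beyond the right end of the domain. There Fbxw11 had 28.9 (16.8 to 48.6) on 15 reads, Chac2 15.5 (8.77 to 19.0) on 13 and Cpeb4 5.65 (0 to 13.4) on 8. The order of Cpeb4 and Chac2 was thus reversed between these neighbouring sites, on few reads.

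Between libraries, the domain share of Cpeb4 did not differ beyond counting error. Its log2 ratio was 0.19 for DRB over DMSO (-0.11 to 0.50) and -0.11 for DMSO over untreated (-0.45 to 0.23). From Chac2 the share was higher with DRB than with DMSO, with a log2 ratio of 0.93 (0.43 to 1.44). The DMSO library was however also below the untreated one, at -0.83 (-1.37 to -0.29), and DRB over untreated was 0.10 (-0.27 to 0.48). Over untreated and DMSO reads added together, the ratio was 0.41. From Fbxw11 DRB over DMSO was 0.66 (0.14 to 1.19), DMSO over untreated -0.31 (-0.92 to 0.29) and DRB over untreated 0.35 (-0.10 to 0.80). With respect to untreated cells, the DRB library was therefore within counting error from each of the 3 promoters. In the DMSO library Chac2 contacts were also nearer in general, with 33.8% within 100 kb, 3.17 interactions per kb at 1 to 2 Mb against 4.01 untreated and 4.11 with DRB, and 4.38 per kb in the mirror of the domain against 5.75 and 5.88. The part of this in the domain share was not tested. As given above, replicates of the same group elsewhere in the series differed beyond counting error in most pairs.

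**Figure D4:**
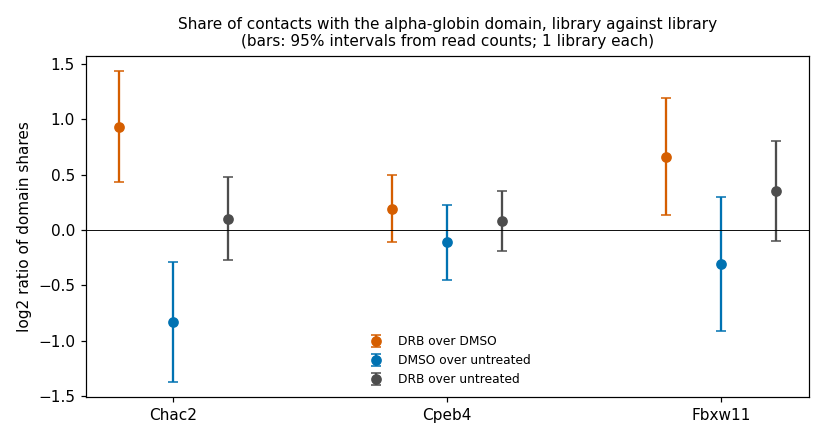
Log2 ratio of the share of cis contacts that fell in the alpha-globin domain, between pairs of the 3 libraries, for each promoter; bars are 95% intervals from read counts, with 1 library each. DRB over DMSO lies above 0 from Chac2 (0.93) and Fbxw11 (0.66), the bar of Cpeb4 spans 0, and DRB over untreated spans 0 from all 3.

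Across all 10 kb bins within 1 Mb that had 10 or more reads on average, the bins past 2-fold between libraries were counted. From Chac2, 10 of 95 bins were over 2-fold higher and 7 over 2-fold lower with DRB than with DMSO (17.9%), against 3 and 2 of 76 for DMSO over untreated (6.58%). From Cpeb4 these counts were 3 and 3 of 77 (7.79%) against 3 and 3 of 58 (10.3%). From Fbxw11 they were 6 and 3 of 64 (14.1%) against 1 and 5 of 48 (12.5%). With 20 or more reads in place of 10, 7 of 139 bins were past 2-fold for DRB over DMSO and 1 of 109 for DMSO over untreated over the 3 promoters together.

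Contact of the 3 genes was also counted from the other end, from viewpoints in and near the alpha-globin locus in libraries with 3 biological replicates per group. These were captured from Hba-1 and Hba-2 in wild type MFL at 0 h and 30 h and in wild type and DKO MFL at 30 h, from the enhancers R1 and R2 in MFL at 30 h and mouse embryonic stem (mES) cells, and from 5 fragments named E, A, C, CX and EX in the same 2 cell types. DKO cells lack the regulatory regions R1 and R2, and mES cells are the E14 line of strain 129/Ola, against C57Bl6 for MFL, so cell type and strain cannot be told apart. For each gene the window was the gene body and 5 kb on each side. A whole gene window seen from such a viewpoint is not the same measure as a promoter fragment against the domain. These values therefore do not replicate those of the promoter viewpoints. The test was an exact permutation of the replicates, two-sided, whose smallest p for 3 against 3 is 0.1, and p was adjusted over the 12 comparisons (Benjamini-Hochberg). The reads per viewpoint and run ranged from 2287 to 188599, with the mES probe libraries the deepest.

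From Hba-1 and Hba-2, contact with Fbxw11 was lower at 30 h than at 0 h. The replicates had 1074, 701 and 892 interactions at 0 h and 240.3, 497 and 662 at 30 h, without overlap (log2 ratio -0.93, exact permutation p = 0.1, adjusted 0.133). At 30 h the replicate with 240.3 came from the shallowest library, and without it the log2 ratio was -0.62. With all reads in place of cis reads as the total, the log2 ratio was -0.97 and the groups overlapped (exact permutation p = 0.2). Of the 56 gene windows between 29 and 35 Mb, 26.8% were lower and 10.7% higher at 30 h without overlap, and the median log2 ratio of all was -0.45. Contact with Cpeb4 was 809 ± 48.7 at 0 h and 756 ± 49.2 at 30 h (SD, n = 3 each), and contact with Chac2 153 ± 32.5 and 124 ± 33.9. In both cases the groups overlapped (exact permutation p = 0.3 and p = 0.4). Over the Cpeb4 gene body alone the log2 ratio was -0.26 and the groups did not overlap (exact permutation p = 0.1).

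In DKO cells all 3 genes had more contact with Hba-1 and Hba-2 than in wild type cells. For Chac2 the replicates had 81.0, 75.05 and 54.1 interactions in wild type and 127, 160.4 and 144.9 in DKO cells. For Cpeb4 they had 696, 580.0 and 621 in wild type and 1272, 1063 and 1066 in DKO, and for Fbxw11 659.8, 593 and 489 in wild type and 1224, 1136 and 991 in DKO. No groups overlapped, and the log2 ratios were 1.04, 0.84 and 0.94 (exact permutation p = 0.1 and adjusted 0.133 each). These values lie near the median of all 57 windows, 0.86. Of the windows, 64.9% were higher and 10.5% lower in DKO cells without overlap, so a higher value was common to most of them.

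From R1 and R2, contact with Cpeb4 was 1182, 1213 and 1208 in mES cells and 885, 867 and 936 in MFL at 30 h, a log2 ratio of -0.42. Contact with Fbxw11 was 1792, 1804 and 1802 in mES cells and 871, 921 and 818 in MFL, a log2 ratio of -1.05. With all reads as the total the ratio of Cpeb4 was -0.76. Neither pair of groups overlapped (exact permutation p = 0.1, adjusted 0.133), beside 39.3% of 56 windows that were lower and 25% that were higher in MFL without overlap. Chac2 had 54.3, 68.2 and 47.6 in mES cells and 28.3, 86.1 and 154.6 in MFL, and the groups overlapped (log2 ratio 0.66, exact permutation p = 0.6). Without MFL replicate 3 this ratio was 0.01.

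From the 5 probe fragments, contact with Cpeb4 was 964 ± 82.7 in mES cells and 594 ± 25.2 in MFL (log2 ratio -0.70), and contact with Fbxw11 2257 ± 91.2 and 1328 ± 11 (log2 ratio -0.77), with SD and n = 3 each. Contact with Chac2 was 53.3 ± 1.72 in mES cells and 76.2 ± 11.6 in MFL (log2 ratio 0.51). None of these groups overlapped (exact permutation p = 0.1, adjusted 0.133 each). With all reads as the total the ratio of Chac2 was 0.20 and its groups overlapped (exact permutation p = 0.4). Of the 57 windows, 31.6% were lower and 40.4% higher in MFL without overlap, and their median log2 ratio was 0.04. Cpeb4 and Fbxw11, the genes nearer to the alpha-globin locus, thus had less contact in MFL than in mES cells from both sets of viewpoints. Chac2, the farthest, was not lower from either. The probe values are means over all 5 fragments, with the controls C and CX included, so they do not stand for the domain alone.

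edgeR's quasi-likelihood test on reads summed over each gene window, with Benjamini-Hochberg adjustment, called the same directions. It called Fbxw11 lower at 30 h (FDR 0.00371), beside 37.5% of 40 windows called in either direction, and neither Cpeb4 nor Chac2 (FDR 0.438 and 0.601). It called all 3 genes higher in DKO cells (FDR 1.8e-12 to 0.000182), beside 78.8% of 52 windows. It called Cpeb4 and Fbxw11 lower in MFL from R1 and R2 (FDR 0.000101 and 2.2e-10), beside 67.3% of 49 windows, and from the probes (FDR 1.7e-10 and 1.1e-12), beside 56.1% of 57. It called Chac2 higher in MFL from R1 and R2 (FDR 0.0150), which it did not without MFL replicate 3 (log2 ratio 0.15, FDR 0.815), and did not call it from the probes (FDR 0.114).

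**Figure D5:**
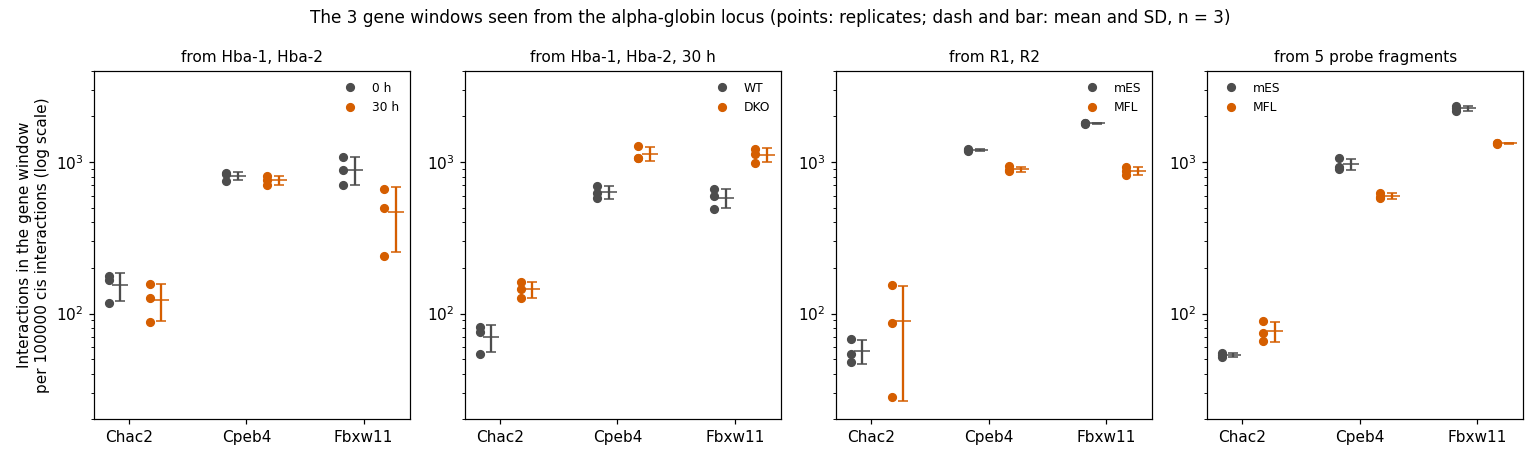
Interactions in the windows of Chac2, Cpeb4 and Fbxw11 (log scale, per 100000 cis interactions), seen from viewpoints in and near the alpha-globin locus in 4 pairs of groups. Points are 3 replicates each, and dash and bar are mean and SD. Fbxw11 is lower at 30 h than at 0 h, all 3 genes are higher in DKO cells, and Cpeb4 and Fbxw11 are lower in MFL than in mES cells.

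The 9 named bins were also looked up from these viewpoints, in 36 comparisons adjusted together. The bin at chr11:31730001-31740000, named from Chac2 and overlapping no gene, had 206, 202 and 286 interactions with Hba-1 and Hba-2 at 0 h and 821, 297.5 and 346 at 30 h (log2 ratio 1.08, exact permutation p = 0.1, adjusted 0.189). Replicate 1 at 30 h stands far above the others, and without it the log2 ratio was 0.48. From R1 and R2 it had 170.3, 148 and 156 in mES cells and 337, 310.0 and 317 in MFL (log2 ratio 1.02, exact permutation p = 0.1, adjusted 0.189), whereas from the probes the groups overlapped (log2 ratio 0.06, exact permutation p = 0.7). In wild type and DKO cells it had 310 ± 63.1 and 364 ± 60.1, with overlap. The Psme4 bin had 27.3 ± 8.15 interactions with R1 and R2 in mES cells and 100.8 ± 46.8 in MFL, without overlap. The MFL libraries had only 5332 to 16459 reads per viewpoint there, so the value of this bin rests on few reads. The bin of Efcab9 and Stk10 went the other way from the probes, with 356, 386 and 345 in mES cells and 185, 208 and 208 in MFL, without overlap (log2 ratio -0.85). Over all 10 kb bins tested, groups did not overlap in 18.6% (30 h and 0 h), 54.7% (DKO and wild type), 57.1% (R1 and R2) and 52% (probes), so a bin without overlap is common in 3 of the 4 comparisons.

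Contacts with other chromosomes made up 31.9% to 40.5% of reads from the 3 promoters and were thinly spread, with 76.5% to 88.1% of their fragments at 1 read. The 3 leading fragments were the same from all 3 promoters in every library. They lay on chromosomes 8 and 17 and took 3.00% to 5.94% of these reads, against 1.21% to 3.098% from Hba-1, 1.33% to 3.49% from Hbb-b1 and 1.42% to 4.11% from Slc25A37. The beta-globin locus received 0 to 2 reads from any of the 3 promoters in a library.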

How the data were processed

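Contacts were measured by NG Capture-C in 3C libraries cut with DpnII. According to the methods of the study, the authors enriched the libraries by double capture with biotinylated oligonucleotides, trimmed reads with Trim Galore, aligned them with Bowtie to mm9, assigned them to DpnII fragments with the CCseqBasic scripts and normalized them in R. For the capture experiments after DRB treatment, where material was limited, the study used a protocol modified for low cell input (Low-Input Capture-C). The paper names this protocol for no other experiment and does not mention the untreated and DMSO libraries there. Versions are not given in the sources used here. The deposited values are reads per 100000 reporter reads of a viewpoint (an RPM-like scale), and every value of the 3 promoters in the 3 libraries came out as a whole number of reads, to within 1.46e-05 of a read. Depth per viewpoint was 6588 to 29553 reads. Fragments within 1 kb of a viewpoint were left out, and counts were rescaled to 100000 cis reads and summed in bins of 10 kb, distance classes, flanks and gene windows. Shares carry 95% Wilson intervals and log2 ratios counting intervals. With 1 library for each treatment no test was made. Deposited runs of 1 replicate were averaged and counted as 1 sample.

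Named bins were the 3 per promoter, from 20 kb to 1 Mb, with the largest excess over their distance class by the lower of the untreated and DMSO values and at least 10 reads in each, none of them within 20 kb of another viewpoint. The rule takes the members by name, but these genes, the lists and the rules were chosen with earlier results of these data known. Between replicated groups, exact permutation tests (two-sided) were used with Benjamini-Hochberg adjustment. As an alternative, edgeR 4.0.16 quasi-likelihood fits were run on recovered reads of the first run, tested on simulated data beforehand. From the probes only E, C and CX were used, of which C and CX are the controls outside the domain. At 0 h and 30 h, the deviations of replicates with the same number had correlations of 0.11, 0.12 and 0.30 over gene windows. These are weak and were not set against replicates with different numbers, so they do not settle whether the numbers pair the samples. The exact tests in the main results did not pair them. In edgeR a replicate block changed no call of the 3 genes. The labels call the replicates biological, and p-values measure the spread between these samples. Other alternatives concerned totals, domain limits, flanks, bin filters and left-out replicates. The libraries of AMKO cells and their control, with 1 sample each, were not used here. Genes came from GENCODE vM1 and promoters from RefSeq. Python 3.11.15, scipy 1.17.1 and R 4.3.3 were used.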

Additional observations from a re-analysis of the deposited data

How the results depend on the processing

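The depth limits what can be said of single sites in the alpha-globin domain, and with 1 library for each treatment no difference between the untreated, DMSO and DRB libraries has a replicate check. No result with a test changed direction under the alternatives run. The ratio of domain over flanks from Fbxw11, which has no test, turned from -0.29 to 0.10 (given again below). Of the comparisons of a value with its alternative, 206 moved within the spread, the counting interval or the threshold. Of the others, 71 were edgeR results that passed the FDR threshold, whatever their change in size. The remaining 50 changed in size, for causes that were not tested apart from the smaller or larger denominators and intervals by construction. For the exact tests of replicates the label was fixed in advance wherever the direction held, since their p cannot fall below 0.1. Their part of the 206 therefore says nothing about stability.

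With all reads in place of cis reads as the total, the domain share was 0.550%, 0.314% and 0.623% from Chac2 (untreated, DMSO, DRB), 0.942%, 0.873% and 1.07% from Cpeb4 and 0.678%, 0.546% and 0.908% from Fbxw11. With the domain taken between the outer CTCF sites it was 1.17%, 0.784% and 1.198%, then 2.04%, 1.83% and 2.22%, then 1.89%, 1.41% and 1.98%. With a margin of 5 kb at each viewpoint it was 0.795% from Chac2 with DRB, 1.37% and 1.41% from Cpeb4 untreated and with DRB, and 0.786% and 1.02% from Fbxw11 untreated and with DRB. Over cis reads at least 20 kb away it was 1.18% from Chac2 with DRB and 2.04%, 1.95% and 2.17% from Cpeb4. With untreated and DMSO reads added as the control, the log2 ratio of DRB from Chac2 was 0.41. The log2 ratio of domain over flanks rose to 1.25 from Chac2 and 1.47 from Cpeb4 with flanks of 200 kb, and was 0.98 from Cpeb4 and 0.10 from Fbxw11 with the domain between the outer CTCF sites. Decay slopes over 20 to 500 kb were -0.96 from Chac2 and -1.27 from Cpeb4. On the left alone slopes were -1.14, -1.31 and -0.79 from Chac2, Cpeb4 and Fbxw11, and on the right alone -0.93, -1.13 and -1.23. The share within 100 kb was 27.8%, 39.8% and 20.6% with that margin and 19.3%, 28.1% and 16.3% of all reads. Bins past 2-fold over the 3 promoters numbered 32 for DRB over DMSO and 17 for DMSO over untreated. Without a filter they were 219 and 220, and with at least 20 reads 7 and 1.

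With all reads as the total, the groups came to overlap for Fbxw11 at 30 h over 0 h (-0.97) and for Chac2 from the probes (0.20), and the ratio of Cpeb4 from R1 and R2 was -0.76. By edgeR, without and with a replicate block, the log2 ratio was -0.90 and -0.91 for Fbxw11 at 30 h over 0 h. For DKO over wild type it was 1.01 and 1.01 for Chac2, 0.85 and 0.84 for Cpeb4 and 0.95 and 0.95 for Fbxw11. For MFL over mES cells from R1 and R2 it was 1.03 and 0.98 for Chac2, -0.41 and -0.42 for Cpeb4 and -1.07 and -1.07 for Fbxw11, and from the probes -0.81 and -0.81 for Cpeb4 and -0.68 and -0.68 for Fbxw11. These passed the threshold, which exact tests of 3 against 3 cannot reach. With the block, 14, 39, 33 and 33 windows were called in the 4 comparisons, against 15, 41, 33 and 32 without it. Outside the comparison of 30 h with 0 h, the deviations of same-numbered replicates had correlations of -0.36 to 0.14. The highest of these lay above the values of 0.11 and 0.12 from that comparison. Leaving out each replicate, over both tests, gave -1.27 to -0.62 for Fbxw11 at 30 h, 0.84 to 1.16, 0.75 to 0.92 and 0.83 to 1.06 for Chac2, Cpeb4 and Fbxw11 in DKO cells, 0.013 to 1.26, -0.46 to -0.39 and -1.11 to -0.998 from R1 and R2, and -0.86 to -0.63 and -0.80 to -0.62 for Cpeb4 and Fbxw11 from the probes. The windows of gene starts, the named bins seen from replicated viewpoints and the edgeR fits without single replicates were added after seeing the data.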
